A study of Mus musculus with 18 samples.

Results

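Oxidative phosphorylation (OXPHOS) genes of the nucleus were described here in mouse bone marrow-derived macrophages, as every gene symbol that starts with Nduf, Uqcr, Atp5, Cox4, Cox5, Cox6, Cox7 or Cox8, together with Sdha, Sdhb, Sdhc, Sdhd and Cyc1. The rule took 93 of the 24059 gene symbols in the count tables. These were 38 genes of complex I, 7 complex I assembly factors (Ndufaf), 4 genes of complex II, 9 of complex III, 18 of complex IV and 17 of ATP synthase. The last number includes Atp5s and Atp5sl (RefSeq symbols Dmac2l and Dmac2), which carry the Atp5 name without being core subunits of the enzyme.

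The macrophages were grown from marrow of C57BL/6J mice, with no other allele named and no age stated, for 7 days in medium with L929-conditioned medium, and their mRNA was sequenced in 18 libraries, 3 per group. The first count table held untreated cells and cells given lipopolysaccharide (LPS), the bacterial cell wall component that activates macrophages. The second table held 4 groups that all received LPS. These were LPS alone, reconstituted high-density lipoprotein (rHDL, the preparation CSL111 of APOA1 and soybean phosphatidylcholine) for 20 h before LPS, cholesterol loading with POPC/cholesterol liposomes before LPS, and loading followed by rHDL and then LPS. How much LPS was given, and for how long, is not stated in the labels used here. The labels do not say that replicates came from separate cultures or animals, so p-values measure only the spread between these libraries, which may be technical.

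OXPHOS is the process by which mitochondria make most ATP. Complexes I and II pass electrons from NADH and succinate to ubiquinone, complex III hands them on to cytochrome c, and complex IV (cytochrome c oxidase) gives them to oxygen, while ATP synthase uses the resulting proton gradient to make ATP. The core of complexes I, III, IV and ATP synthase comes from the mitochondrial genome as well as the nucleus. Macrophages activated with LPS are known to shift their energy metabolism from respiration to glycolysis. The text below is about mRNA of the nuclear genes only, and the tables held 0 rows on the mitochondrial chromosome.

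Promoter sequence was searched in the RefSeq windows of build GRCm38.p6, from 250 bases before to 50 bases after each start, and 76 of the 93 genes had a window. The NRF1 letters GCGCATGCG, named after nuclear respiratory factor 1, a known activator of such genes, stood on either strand in 10 of the 76 (13.2%), against 2.0% of 27025 genes and 4.2% of the 7239 genes that were also tested in the first table. The letters CCGGAAG, searched like the others on both strands and holding the core bound by ETS factors such as GABPA, stood in 17 (22.4%, against 9.9% and 21.4%). The YY1 letters AAGATGGCG stood in 8 (10.5%, against 1.6% and 4.0%), in 7 of these at or after the start. For ETS the share in OXPHOS genes was close to that in tested genes. A match is a description of letters and shows no binding. The 250 bases before the start are shown for 3 genes with the NRF1 letters that recur below, Cox6a1 (a complex IV subunit, chr5:115348959-115349208, minus strand), Ndufaf4 (an assembly factor, chr4:24897833-24898082, plus strand) and Atp5k (ATP synthase subunit e, chr5:108434400-108434649, minus strand). Capitals mark the NRF1 letters, which match here on both strands with an overlap, and, in Cox6a1 near the 3′ end, the ETS letters on the other strand.
Cox6a1: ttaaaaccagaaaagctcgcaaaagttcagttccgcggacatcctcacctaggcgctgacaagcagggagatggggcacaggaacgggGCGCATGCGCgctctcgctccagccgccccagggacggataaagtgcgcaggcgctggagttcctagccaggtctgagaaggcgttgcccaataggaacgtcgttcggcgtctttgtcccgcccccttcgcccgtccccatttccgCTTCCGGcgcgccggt
Ndufaf4: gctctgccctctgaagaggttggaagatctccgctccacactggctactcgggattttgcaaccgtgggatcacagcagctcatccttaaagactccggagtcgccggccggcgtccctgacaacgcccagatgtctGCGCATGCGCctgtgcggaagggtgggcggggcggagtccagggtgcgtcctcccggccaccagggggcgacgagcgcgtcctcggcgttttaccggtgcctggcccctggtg
Atp5k: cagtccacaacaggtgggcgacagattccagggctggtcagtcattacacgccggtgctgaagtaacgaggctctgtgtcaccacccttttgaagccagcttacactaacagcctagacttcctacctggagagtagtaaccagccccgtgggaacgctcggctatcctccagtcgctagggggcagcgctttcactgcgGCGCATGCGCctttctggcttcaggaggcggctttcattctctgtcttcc

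Of the 93 genes, 78 had enough counts to be tested in each table. Reads that overlapped more than 1 transcript row had been left out of the counts, since 6697 of 6698 rows without an exon base of their own held 0 counts. For 9 genes this left little or nothing to measure. Ndufs1 had 0.0% of its exon bases to itself, Ndufs8 0.3%, Ndufs5 4.9%, Ndufv2 5.9%, Cox7a2l 6.0%, Ndufs6 10.8%, Ndufa7 11.4%, Atp5g1 15.3% and Atp5c1 35.3%. Their counts say nothing of their expression. The other 6 untested genes are tissue isoforms of which little was read. Cox4i2, the lung and hypoxia isoform, had 14 counts over the 18 libraries and Ndufa4l2 had 7. Cox7b2, Cox8b, Cox8c and Cox6b2 had 0 counts, where a count of 0 allows up to 0.317 CPM (counts per 1000000 counts of the library) in the smallest library by counting error alone. Cox6b2 also had only 5.3% of its exon bases to itself. Among tested genes Atp5sl (41.8%), Ndufv3 (69.2%) and Ndufa13 (72.5%) were counted over part of their length.

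Levels per transcript length (RPKM, from TMM-scaled counts) placed a few genes of complex IV and ATP synthase at the top. In untreated cells Cox4i1, the complex IV subunit that binds regulatory ATP, was first with 468 ± 7.26 RPKM (SD, n = 3). Atp5b, the catalytic beta subunit of ATP synthase, followed with 291 ± 3.70 and Cox6a1 with 268 ± 9.62. Cox8a (222 ± 9.06), Atp5a1 (207 ± 3.20) and Atp5e (200 ± 14.9) came next, and the last pair lie within their spread of each other. Assembly factors lay far below, from 11.4 ± 0.989 for Ndufaf3 to 2.51 ± 0.155 for Ndufaf5. The muscle isoforms Cox7a1 (1.19 ± 0.513) and Cox6a2 (0.966 ± 0.15) were the lowest tested complex IV genes.

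The order at the top was kept with LPS in the first table, where Cox4i1 was at 655 ± 143, Atp5b at 455 ± 28.7 and Cox6a1 at 381 ± 83.9 RPKM. In the second table Atp5b and Cox4i1 did not differ beyond their spread in 3 of the 4 groups. They were at 434 ± 9.46 and 406 ± 46.6 with rHDL, 410 ± 1.23 and 402 ± 11.8 with loading, and 401 ± 15.5 and 408 ± 87.3 with both, while LPS alone gave 389 ± 9.70 and 365 ± 10.5. Of the 3 genes for the identical c ring protein of ATP synthase, Atp5g3 (157 ± 0.766 RPKM in untreated cells) was above Atp5g2 (83.5 ± 3.85) in untreated cells, and Atp5g1 could not be measured. Complex IV subunits with a muscle form were carried by the general form, with Cox6a1 at 268 against 0.966 RPKM for Cox6a2 and Cox7a2 at 82.9 ± 5.69 against 1.19 for Cox7a1.

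LPS against untreated cells asks how the OXPHOS genes took part in the response to LPS. Relative to the other genes of the library, 12 of 12 tested genes of complex IV, 6 of 9 of complex III and 8 of 15 of ATP synthase rose. Of 7 complex I assembly factors 3 fell (42.9%), a share near the 37.6% of all genes called lower. Under TMM scaling, edgeR's quasi-likelihood test called 38 of the 78 genes higher and 6 lower, against 35.3% higher and 37.6% lower of all 9576 genes tested. The median log2 change of the 78 was 0.28 against -0.05 for all genes, and 66 of them lay above the median of all genes. Scaled by library totals the median of all genes moved to -0.77, and the 78 genes had a median of -0.44 with 1 higher and 59 lower, where 16% and 69.3% of all genes were called. Without LPS library 2 the median under TMM was 0.15, and its distance to that of all genes was 0.22. With all libraries that distance was 0.33 under either scaling, which follows from the scaling, since it shifts all genes of a library alike. Each rise below is under TMM, and so relative to the other genes, unless library totals are named. Cox6a2 was the only gene called higher as a share of all counts.

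The sum over all OXPHOS genes shows the same turn. It was 5580, 5500 and 5750 CPM in the untreated libraries and 6250, 8310 and 7100 CPM with LPS under TMM. With library totals it was 7150, 7020 and 7390 CPM in untreated cells and 4980, 6460 and 5430 CPM with LPS. The groups did not overlap under either scaling, and they stood in opposite order. LPS library 2 was the highest of its group in both.

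Complex IV had 12 of its 12 tested genes called higher under TMM, with a median of 0.50 (library totals -0.22, 1 higher and 5 lower). One of them, Cox7a1, was near the limit of the filter on low counts, and without it 11 of 11 were called higher with a median of 0.49. Cox5a, the subunit that binds a thyroid hormone metabolite, was at 94.5, 90.6 and 103 CPM in untreated and 139, 201 and 168 CPM in LPS libraries. The groups did not overlap. Its log2 change was 0.82 ± 0.12 (SE, adjusted p = 0.000105) and 0.10 with library totals (adjusted p = 0.446). Cox4i1 (mm10 chromosome 8, 120668290 to 120674209) was at 316, 313 and 323 CPM without and 352, 546 and 437 CPM with LPS. All LPS libraries were above all untreated ones, with library 2 far above the other two (0.49 ± 0.13, adjusted p = 0.00592, -0.23 with library totals). Cox7c rose by 0.67 ± 0.15, and the others were between 0.31 (Cox7b, the only complex IV gene whose groups overlapped) and 0.53 (Cox6c), all of them below 0 with library totals.

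The muscle isoforms of complex IV were read at very low levels. Cox6a2 was at 0.602, 0.559 and 0.748 CPM in untreated and 1.60, 1.75 and 2.08 CPM in LPS libraries, without overlap. Its log2 change was 1.52 ± 0.27 (adjusted p = 0.000449), and it remained called with library totals (0.81, adjusted p = 0.0173). Cox7a1 was at 1.41 ± 0.40 (adjusted p = 0.00839; 0.70 and adjusted p = 0.128 with library totals). These calls rest on 9 to 24 counts per LPS library. Cox7a1, with 5 to 13 counts per untreated library, passed the filter through its higher libraries, 2 with LPS and 1 untreated, so its value is given as a description. Cox6a2 had 89.5% of its exon bases to itself and shared the rest with Itgad, and counting ignored strand.

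Complex III had 6 of 9 genes called higher under TMM (median 0.38, library totals -0.34). Uqcrq, a small subunit, was at 58.1, 55.7 and 58.1 CPM in untreated and 89.1, 120 and 113 CPM in LPS libraries, without overlap. It rose by 0.91 ± 0.11 (adjusted p = 1.59e-05) and was at 0.19 with library totals (adjusted p = 0.0999). Uqcrfs1, the Rieske iron-sulfur protein, rose by 0.77 ± 0.11, and Uqcrb by 0.55 ± 0.11. Cyc1, the cytochrome c1 that reduces cytochrome c, rose by 0.41 ± 0.08, while the core proteins Uqcrc1 and Uqcrc2 rose by 0.33 ± 0.09 and 0.38 ± 0.07. With library totals Cyc1, Uqcrc1 and Uqcrc2 were at -0.31, -0.38 and -0.34 and called lower. Uqcrh, the hinge protein, was not called (0.22 ± 0.17), with LPS libraries at 70.5, 130 and 93.2 CPM on both sides of the untreated 82.6, 82.0 and 88.0 CPM.

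ATP synthase had 8 of 15 genes higher and 2 lower under TMM (median 0.33, library totals -0.39). Atp5b (mm10 chromosome 10, 128083307 to 128090388) was at 547, 541 and 555 CPM in untreated and 807, 914 and 846 CPM in LPS libraries, a rise of 0.64 ± 0.07 (adjusted p = 1.56e-05; -0.07 and adjusted p = 0.361 with library totals). The groups were well apart. Atp5a1, the alpha subunit, rose by 0.43 ± 0.08 (-0.29 with library totals). Atp5g3 and Atp5g2, which encode the same mature c ring protein, were at 0.53 ± 0.13 (called) and -0.15 ± 0.10 (not called), and the difference between them was not tested.

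The 2 ATP synthase symbols that fell are those that are not core subunits. Atp5s, known as factor B, was at 2.97, 2.8 and 3.6 CPM in untreated and 0.926, 0.953 and 1.39 CPM in LPS libraries. It fell by 1.51 ± 0.25 on the log2 scale (adjusted p = 0.000233). Atp5sl fell by 1.66 ± 0.26, and 1 of its LPS libraries was under the limit of the filter on low counts. Both groups stood apart without overlap, and both genes were lower under each scaling, at -2.22 and -2.37 with library totals.

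Complex I had 11 of 31 genes higher and 1 lower under TMM (median 0.18, library totals -0.54 with 27 lower). Its share called higher, 35.5%, was near the 35.3% of all genes, while 3.23% were lower against 37.6% of all genes. Of the 31 genes 27 lay above the median of all genes. With library totals 69.3% of all genes were called lower. Ndufs4, a subunit of the NADH-oxidizing arm, was at 25.1, 23.4 and 27.5 CPM in untreated and 33.2, 42.2 and 42.7 CPM in LPS libraries (0.64 ± 0.11, adjusted p = 0.00039; -0.08 with library totals). It had the largest rise of the complex. Ndufab1, the mitochondrial acyl carrier protein, rose by 0.36 ± 0.10 (-0.36 with library totals), and Ndufv1, the FMN-binding subunit that takes electrons from NADH, was not called (0.18 ± 0.10). Ndufv3 fell by 1.16 ± 0.18 (adjusted p = 0.000134; -1.87 with library totals), from 5.7 to 7.6 CPM in untreated to 2.8 to 3.3 CPM in LPS libraries, over the 69.2% of its exon bases that could be counted.

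Complex II, which is also an enzyme of the tricarboxylic acid cycle, held Sdha as its only called gene under TMM. Sdha, the flavoprotein that oxidizes succinate, was at 249, 254 and 236 CPM in untreated and 275, 307 and 283 CPM in LPS libraries (0.22 ± 0.07, adjusted p = 0.0172), and at -0.49 with library totals. The membrane anchors Sdhc (0.05 ± 0.10) and Sdhd (0.16 ± 0.09) and the iron-sulfur subunit Sdhb (-0.03 ± 0.13) were not called under TMM. Their groups overlapped. With library totals 4 of 4 genes of the complex were called lower, with a median of -0.61.

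Of the complex I assembly factors edgeR called 3 of 7 lower and 0 higher (0 higher at an unadjusted p under 0.05 and 0 by DESeq2), with a median of -0.15 under TMM. The share called lower, 42.9%, was near the 37.6% of all genes, whose median was -0.05. Ndufaf7, a mitochondrial methyltransferase, was at 12.2, 11.6 and 11.2 CPM in untreated and 5.0, 6.4 and 6.6 CPM in LPS libraries. It fell by 0.97 ± 0.14 (adjusted p = 6.89e-05). Ndufaf4, whose promoter is shown above, was at 14.9, 16.2 and 15.8 CPM without and 10.0, 8.9 and 9.0 CPM with LPS, a fall of 0.74 ± 0.11 (adjusted p = 8.36e-05). Neither gene's groups overlapped, and both were lower under each scaling (-1.68 and -1.46 with library totals). Ndufaf1 fell by 0.45 ± 0.15. Ndufaf2 (0.14), Ndufaf3 (0.31), Ndufaf5 (-0.15) and Ndufaf6 (-0.10) did not pass the test under TMM. With library totals all 7 were called lower, with a median of -0.86, where 69.3% of all genes were.

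**Figure D1:**
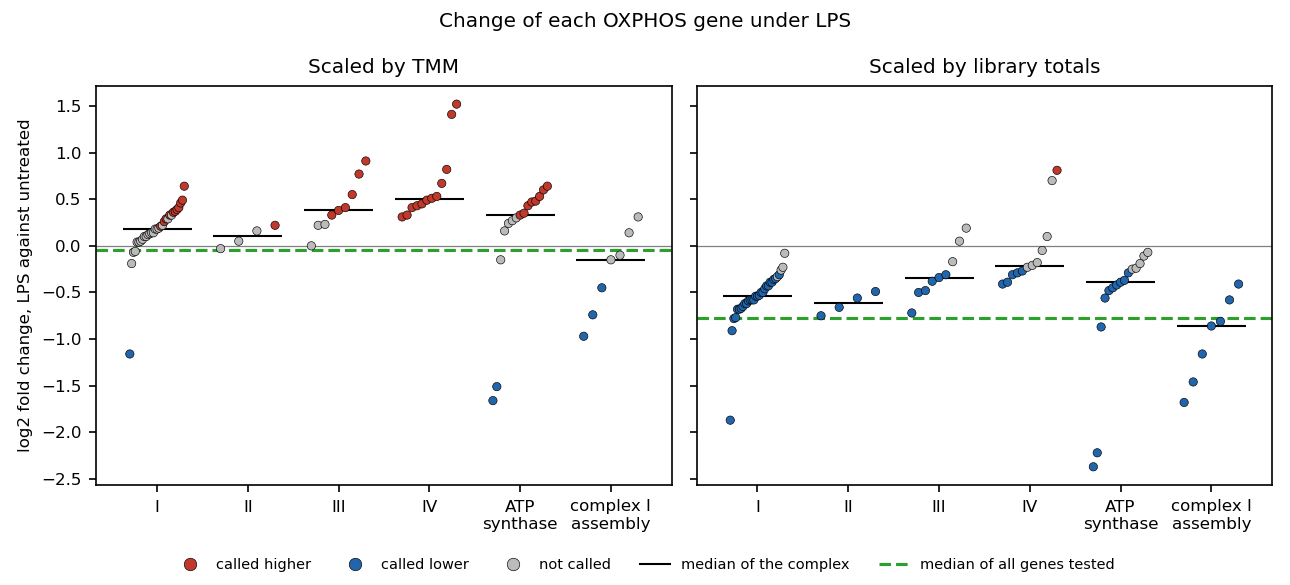
Log2 fold change (y axis) of each of the 78 tested OXPHOS genes with LPS against untreated cells, by complex (x axis), n = 3 libraries per group, with counts scaled by TMM (left) or by library totals (right). Points are genes, coloured by call, black lines are medians and the dashed line is the median of all genes, which moves from -0.05 to -0.77, so that the 38 rises on the left become 1 on the right while the same 6 genes are among the lower ones in both.

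Of the 44 genes called with LPS, 35 stayed called when any 1 of the 6 libraries was left out. Those that did not were Atp5e, Cox7b, Ndufa2, Ndufa4, Ndufa10, Ndufa11, Ndufb2, Ndufaf1 and Sdha. Ndufa4, now counted with complex IV by many authors, was at 55.9, 51.5 and 55.4 CPM in untreated and 56.5, 77.9 and 75.4 CPM in LPS libraries (0.37 ± 0.11, adjusted p = 0.0141; -0.35 with library totals), and its adjusted p reached 0.0626 with a library left out. Its paralog AA467197 (Nmes1, not taken by the rule), which is known to replace it in complex IV of inflamed cells, went from 2.08, 1.17 and 1.70 CPM to 125, 154 and 150 CPM. That was a rise of 6.43 ± 0.17 (adjusted p = 1.12e-10; 5.72 with library totals).

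OXPHOS transcripts are short, and short transcripts of any gene set some libraries apart from their group. The longest transcript row had a median of 686.5 bases in the tested OXPHOS genes and 2746 bases over all tested genes. Each library was set against the mean of the other libraries of its group. In LPS library 1 of the first table the median deviation was -0.34 (log2) for OXPHOS genes. It was -0.29 for all genes with transcripts up to 1000 bases. In LPS library 2 the values were 0.35 and 0.30. In the second table rHDL library 1 deviated by 0.19 and 0.21, library 1 of loading with rHDL by 0.39 and 0.35, and library 3 of that group by -0.24 and -0.20. Genes over 4000 bases deviated the other way in these 5 libraries. In the LPS comparison, transcripts up to 700 bases had a median log2 change of 0.33 in 40 OXPHOS genes and 0.14 in the other genes of that length, those of over 700 and up to 1000 bases had 0.15 (10 OXPHOS genes) and 0.06, those of over 1000 and up to 2000 bases 0.26 (21) and -0.05, and those of over 2000 and up to 4000 bases -0.15 (7) and -0.11. With rHDL before LPS, without loading, the same lengths from short to long gave 0.20, 0.23, 0.15 and 0.12 in OXPHOS genes. The other genes of these lengths were at 0.07, 0.10, 0.08 and 0.02. The part of transcript length in the results was not tested beyond these values.

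**Figure D2:**
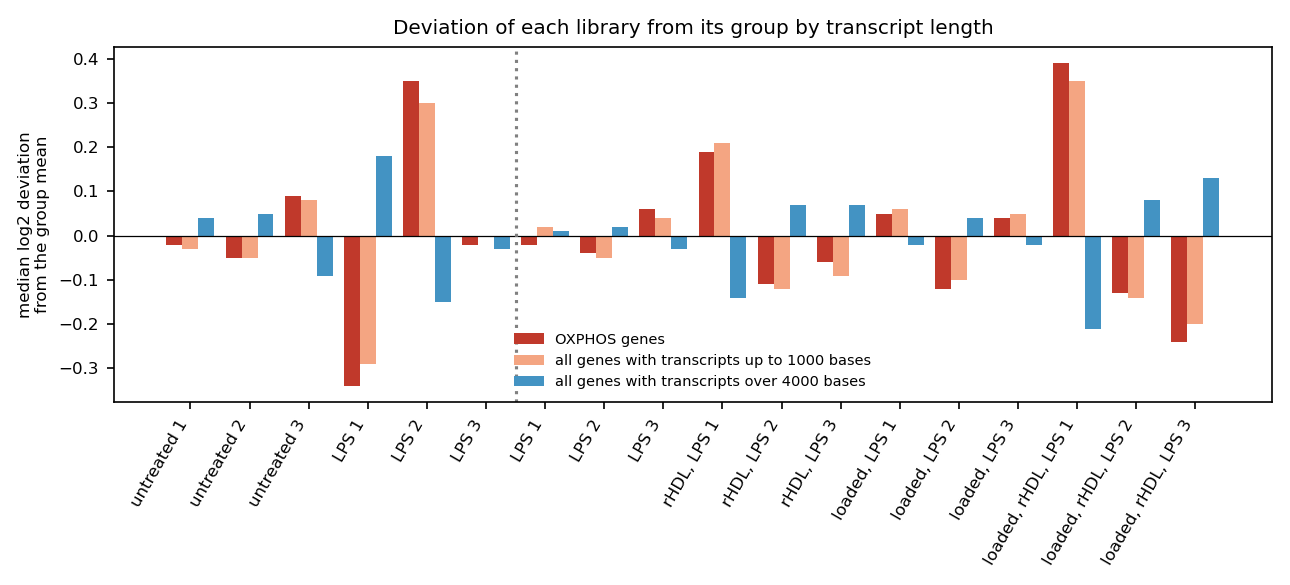
Median log2 deviation (y axis, bars) of each of the 18 libraries from the mean of the other libraries of its group, which the axis label calls the group mean. Bars are for OXPHOS genes, for all genes with transcripts up to 1000 bases and for all genes with transcripts over 4000 bases. OXPHOS genes and short transcripts deviate to the same side in the libraries that stand apart, from -0.34 in LPS library 1 of the first table to 0.39 in library 1 of loading with rHDL.

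rHDL before LPS, without loading, asks what the lipoprotein changed in LPS-stimulated cells. A minority of OXPHOS genes rose, most of them by small amounts. Under TMM 14 of 78 genes were called higher and 0 lower (0 lower at an unadjusted p under 0.05, and 0 by DESeq2). The share called higher, 17.9%, was near the 18.1% of all genes, while 18.4% of all genes were called lower. The median log2 change was 0.19 against 0.03 for all genes, 70 genes were above 0, and 39 had rHDL libraries all above the libraries with LPS alone, against 26.9% of all genes. With library totals the median was 0.31 against 0.14 for all genes, and 44 genes were called higher, where 28.0% of all genes were.

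The number of calls changed when a library was left out, which also leaves fewer libraries to the test. The count of 14 fell to 3, 8 and 4 without LPS library 1, 2 or 3, and to 2 and 8 without rHDL library 1 or 3. The median fell to 0.11 without rHDL library 1 and lay between 0.17 and 0.22 in the other such fits. The share of all genes called in these fits is not given here. Only Ndufaf7 and Ndufaf2 stayed called in each of the 6 fits with a library left out. The authors' deposited table for this comparison lists 3 OXPHOS genes among 1609, Ndufaf7 (log2 0.83), Ndufaf2 (0.64) and Atp5k (0.50). Their RPKM ratios there were 1.93, 1.7 and 1.54, and by its name that list may hold only changes of at least 1.5-fold. The 14 calls had no minimum fold, so the counts are not alike.

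Of the 7 complex I assembly factors 3 were called higher, and 2 of these, Ndufaf7 and Ndufaf2, had the largest rises among the 14 called genes. Ndufaf7 (mm10 chromosome 17, 78937135 to 78948052) was at 2.8, 1.6 and 2.6 CPM with LPS alone and 4.4, 3.8 and 4.3 CPM after rHDL. The groups did not overlap, and it rose by 0.85 ± 0.21 (adjusted p = 0.00531). Ndufaf2, which aids a late step of complex I assembly, was at 5.7, 5.3 and 5.6 CPM without and 9.9, 7.5 and 8.6 CPM with rHDL, a rise of 0.65 ± 0.15 (adjusted p = 0.00311), also without overlap. Ndufaf4 rose by 0.34 ± 0.12 (adjusted p = 0.0417), and its adjusted p reached 0.193 with a library left out. In complex I itself Ndufa12 (0.38 ± 0.10) and Ndufb5 (0.28 ± 0.11) were called, of 31 tested.

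ATP synthase had 4 of 15 genes called. Atp5k, which helps hold ATP synthase in dimers, was at 27.5, 30.4 and 29.3 CPM with LPS alone and 47.8, 36.1 and 40.6 CPM after rHDL. It rose by 0.51 ± 0.16 (adjusted p = 0.0188), without overlap, and lost its call in 3 of the 6 fits. Atp5g3 rose by 0.26 ± 0.09, Atp5d, the delta subunit, by 0.23 ± 0.07 and Atp5b by 0.16 ± 0.06. Atp5b was at 713, 749 and 731 CPM with LPS alone and 836, 802 and 809 CPM after rHDL, without overlap. Yet edgeR called Atp5b in 0 of the 6 fits that left out a library (highest adjusted p 0.14).

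Complex III had 4 of 9 genes called, namely Uqcr11 (0.36 ± 0.13), Uqcr10 (0.30 ± 0.11), Cyc1 (0.19 ± 0.06) and Uqcrc2 (0.15 ± 0.06). Cyc1 was at 71.6, 75.8 and 73.3 CPM with LPS alone and 85.1, 81.2 and 85.6 CPM after rHDL, without overlap. Cox7b was the only 1 of 12 complex IV genes called (0.33 ± 0.10, adjusted p = 0.0197). Complex II had 0 of 4 called by edgeR, and 1 of 4 at an unadjusted p under 0.05. Sdha was at 243, 249 and 239 CPM without and 240, 233 and 233 CPM with rHDL, and these groups overlapped.

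**Figure D3:**
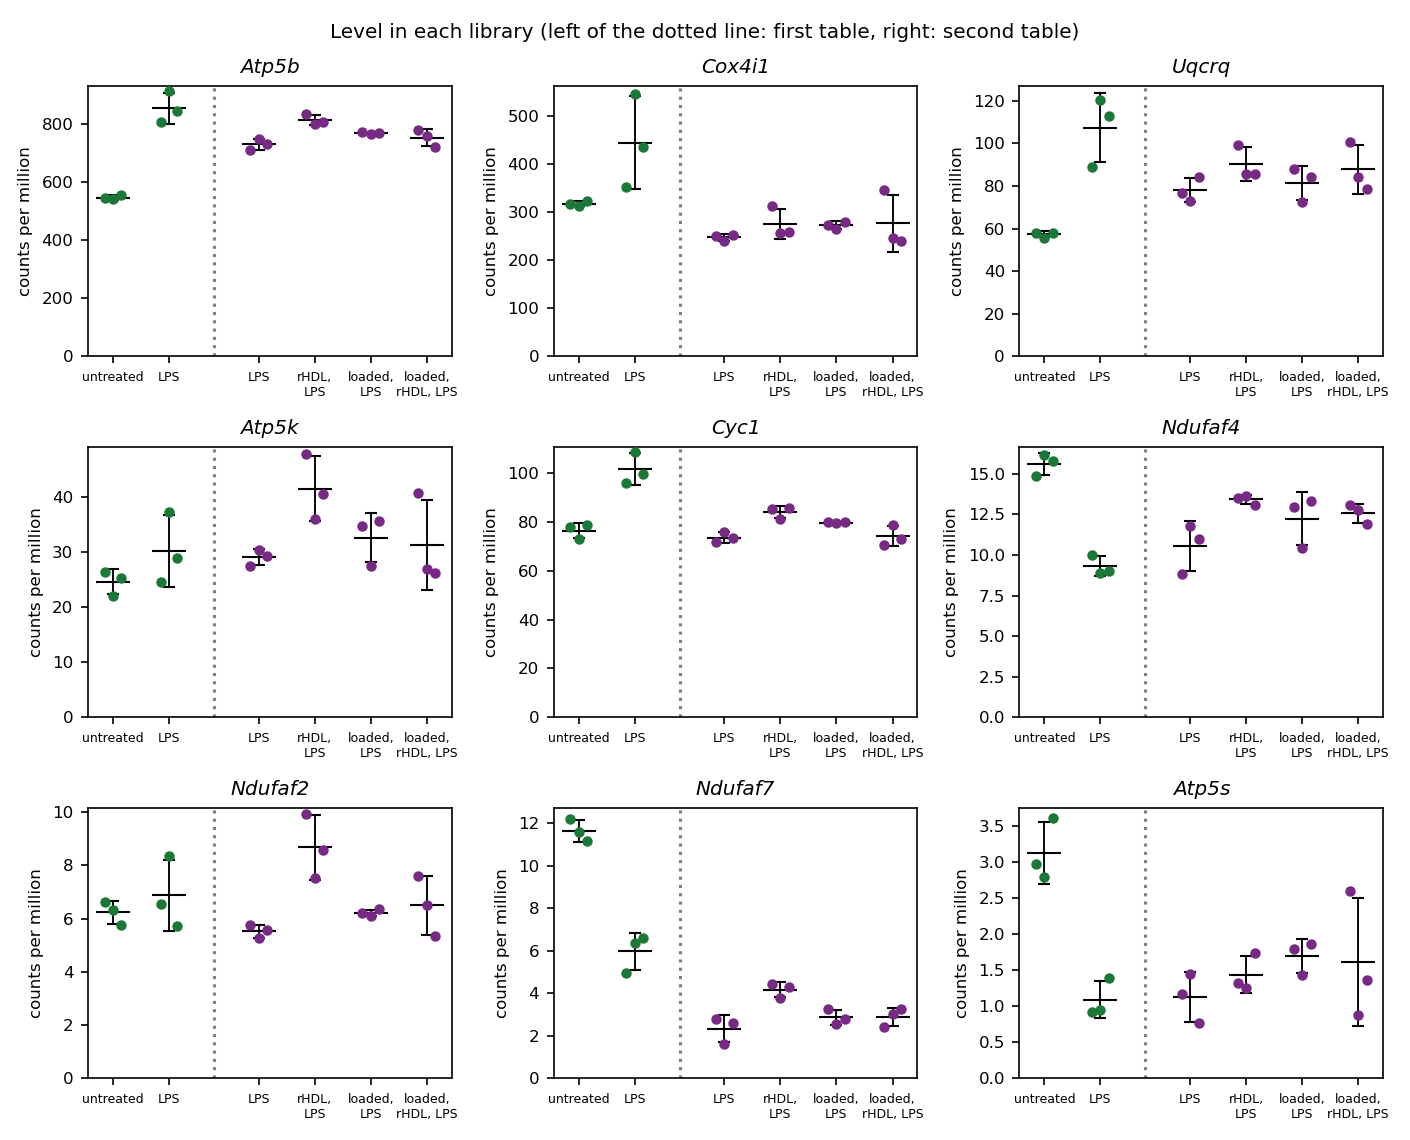
CPM (y axis, TMM scaling) of 9 OXPHOS genes in each of the 18 libraries by group (x axis), with the group mean and SD (n = 3) in black; the tables left and right of the dotted line were scaled separately. Atp5b, Cox4i1 and Uqcrq are higher with LPS in the first table (a direction that holds under TMM, while with library totals Atp5b and Cox4i1 are at -0.07 and -0.23), Ndufaf4, Ndufaf7 and Atp5s are lower, and Ndufaf2, Ndufaf7, Atp5k and Cyc1 are higher after rHDL without loading.

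After cholesterol loading, rHDL changed no OXPHOS gene past the test. edgeR called 0 of 78 (0 at an unadjusted p under 0.05, and 0 by DESeq2), where 0.424% of all genes were called higher and 0.591% lower and 1044 of 8965 genes had an unadjusted p under 0.05. The median was -0.02 against 0.00 for all genes, and -0.16 against 0.00 without library 1 of loading with rHDL. Ndufaf7 was at 3.3, 2.5 and 2.8 CPM with loading and 2.4, 3.0 and 3.2 CPM with loading and rHDL (0.00 ± 0.21). Ndufaf2 was at 0.06 ± 0.15 and Atp5k at -0.06 ± 0.16, and the groups overlapped for all 3. The loaded rHDL libraries were spread widely, with sums over all OXPHOS genes of 6530, 5430 and 5230 CPM, library 1 being the highest, against 5950, 5640 and 5950 CPM with loading alone. Without the library numbered 1 of either rHDL group, a setting chosen after seeing the data, Sdhc alone was called, lower at -0.22 (adjusted p = 0.049).

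**Figure D4:**
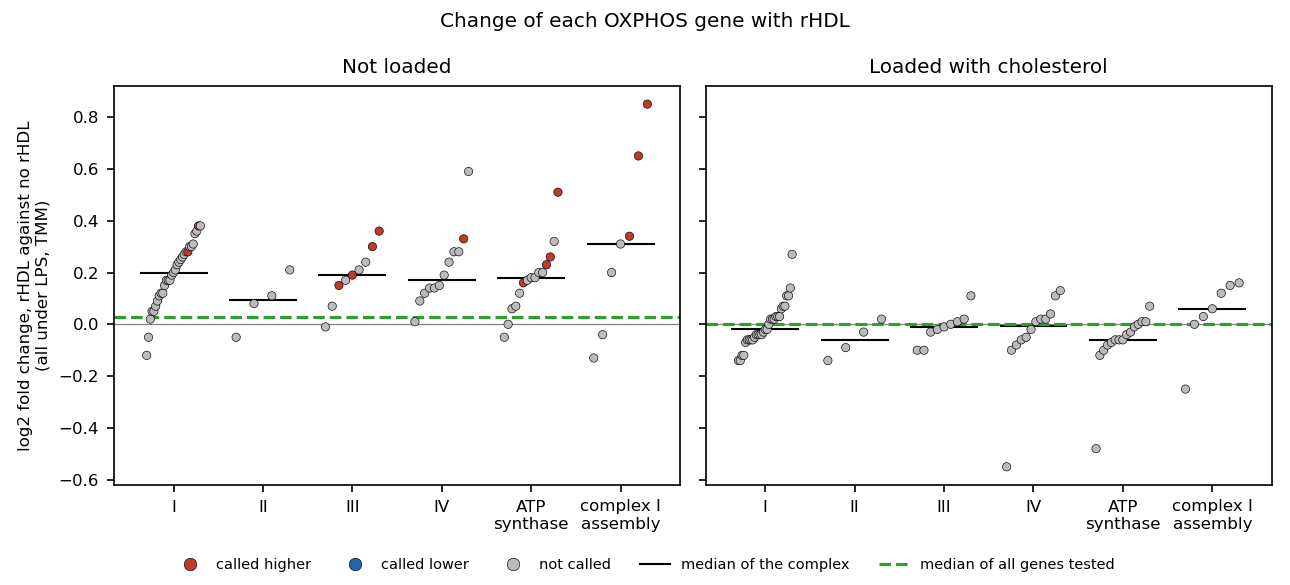
Log2 fold change (y axis, TMM) of each of the 78 tested OXPHOS genes with rHDL against no rHDL, all under LPS, by complex (x axis), without (left) and after (right) cholesterol loading, n = 3 libraries per group. Points are genes, coloured by call; the median over the genes is 0.19 with 14 called on the left (0.31 with library totals) and -0.02 with 0 called on the right.

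Loading under LPS, without rHDL, gave small values above 0 for most OXPHOS genes, and 1 gene passed the test. The median was 0.16 against 0.01 for all genes (0.23 and 0.09 with library totals), and 73 of 78 genes were above 0. Only Atp5d was called (0.27 ± 0.07, adjusted p = 0.0338), where 3.99% of all genes were called higher and 4.57% lower. Atp5d was at 67.3, 72.5 and 71.6 CPM with LPS alone and 85.2, 82.8 and 86.7 CPM with loading, without overlap, but it was called in 0 of the 6 fits that left out a library (highest adjusted p 0.149). Library totals gave 12 genes higher, where 6.98% of all genes were. An unadjusted p under 0.05 was seen for 14 of 78, where 2128 of all 8965 genes had one. The 2 groups fitted alone gave 11, for which the share of all genes is not given here. This comparison and that of rHDL without loading share the libraries with LPS alone, so their medians are not independent. AA467197 fell by 0.80 ± 0.23 with loading (adjusted p = 0.0461).

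The difference between the rHDL effects after and without loading was tested itself. edgeR called 6 of 78 genes lower after loading and 0 higher (0 higher at an unadjusted p under 0.05, and 0 by DESeq2), where 14.2% of all genes were lower and 16% higher. These were Ndufaf7 (-0.85 ± 0.30), Ndufaf2 (-0.59 ± 0.21), Cox7b (-0.41 ± 0.14), Atp5g3 (-0.36 ± 0.12), Atp5d (-0.29 ± 0.10) and Cyc1 (-0.29 ± 0.09), with adjusted p from 0.0198 to 0.0493. Cyc1, the one called most often when a library was left out, had rHDL libraries above the control without loading, and after loading at 70.6, 78.8 and 73.2 CPM against 79.8, 79.3 and 79.8 CPM, all below. None of the 6 was called in each of the 12 fits that left out a library, and Cyc1 was called in 8. Library totals gave 37 lower, where 23.7% of all genes were.

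Library 1 of loading with rHDL weighed most on this count. Without it 36 genes were called lower, and without both rHDL libraries numbered 1, 25 were. Leaving out each of the other libraries gave 0 to 2, except that rHDL library 2 without loading gave 6. The share of all genes called lower in these fits is not given here, so their counts are no comparison with other genes. DESeq2 called 1, Cyc1 (-0.27, adjusted p = 0.0302).

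Other mitochondrial gene lists were measured beside the OXPHOS genes. Their counts with LPS stand against 35.3% of all genes higher and 37.6% lower under TMM, and 16% and 69.3% with library totals. Under TMM 7 of 18 genes for complex IV assembly rose and 4 fell (library totals 3 and 12), and among those that rose were the copper carriers Cox17 (1.32 ± 0.17) and Sco1 (1.29 ± 0.08), which were at 0.60 and 0.58 with library totals. Of 10 other assembly factors 1 rose and 5 fell (library totals 0 and 10), with Sdhaf1, which serves complex II, at -2.05 ± 0.17. Of 7 electron carriers and entry enzymes 3 rose and 3 fell (library totals 1 and 5), and Cycs, cytochrome c, rose by 1.61 ± 0.11 (0.89 with library totals). Of 13 tricarboxylic acid cycle genes 6 rose and 2 fell, of 5 nucleotide carriers, phosphate carriers and outer membrane channels 3 rose, and of 72 mitochondrial ribosomal proteins 24 rose and 16 fell (medians 0.07, 0.27 and 0.08; -0.64, -0.45 and -0.63 with library totals). The share of mitochondrial ribosomal proteins called higher, 33.3%, was near that of all genes. Cytosolic ribosomal proteins, whose transcripts are also short, rose in 64 of 71 (median 0.41; library totals -0.31, 1 higher and 43 lower).

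Of 13 regulators of mitochondrial biogenesis 8 rose and 2 fell with LPS under TMM, 61.5% and 15.4% against the same 35.3% and 37.6% of all genes (library totals 2 and 5). Hif1a, the hypoxia factor that favours glycolysis, rose by 1.52 ± 0.08, Ppargc1b by 0.98 ± 0.21, Tfam, which packs and transcribes mitochondrial DNA, by 0.93 ± 0.10, and Gabpa by 0.87 ± 0.07, with library totals giving 0.80, 0.27, 0.21 and 0.15. Polrmt, the mitochondrial RNA polymerase, fell by 0.73 ± 0.11, and Tfb2m, its cofactor, by 0.64 ± 0.13.

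With rHDL before LPS, where 18.1% of all genes were higher and 18.4% lower, the transporters Vdac2 (0.45 ± 0.06), Slc25a5 (0.40 ± 0.08) and Slc25a3 (0.37 ± 0.08) rose, 3 of 5 in that list, together with 5 of 13 tricarboxylic acid cycle genes, such as Idh2 (0.49 ± 0.13), and 15 of 72 mitochondrial ribosomal proteins, or 20.8%, with 1 that fell. Cytosolic ribosomal proteins had 1 of 69 higher and a median of 0.00. Of the regulators, Pprc1 rose (0.32 ± 0.12), while Hif1a (-0.40 ± 0.07), Gabpa (-0.38 ± 0.07) and Tfam (-0.33 ± 0.11) fell. Of the 18 genes for complex IV assembly 3 rose and 3 fell, among the latter Sco1 by 0.99 ± 0.12, and of 6 electron carriers and entry enzymes 2 rose. In the test of the difference between the rHDL effects 4 of the 5 transporter genes were lower after loading, with Slc25a5 at -0.52 ± 0.12 and Vdac2 at -0.44 ± 0.09, and 13 of 72 mitochondrial ribosomal proteins were lower (18.1%), where 14.2% of all genes were.

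Cell identity was checked with markers. Csf1r, the macrophage growth factor receptor, lay between 1057 and 3817 CPM and Lyz2 between 5690 and 24055 CPM in the 18 libraries, and Cd68 was present in all. Itgam and the neutrophil gene S100a9 were at 0 counts but had 0.1% and 0.6% of their exon bases to themselves, so they show nothing. The lymphoid markers Cd3e, Cd79a and Nkg7 were at most 0.35 CPM. Itgax, a dendritic marker, was at 355 to 736 CPM in the first table and 67.6 to 156 CPM in the second. The other dendritic markers Flt3, Ccr7 and Zbtb46 were at most 1.75 CPM. Mmp8, a neutrophil gene, was at 78.0 to 102 CPM in the first table. With rHDL before LPS 4 of 6 tested macrophage markers were lower and 1 higher, among them Csf1r (-0.84 ± 0.06) and Fcgr1 (-2.60 ± 0.23). The neutrophil genes S100a8 and Mmp8, at most 8.54 CPM in the second table, were lower as well, as were the platelet genes Pf4 and Ppbp. Of the 2 tested genes in the list of stromal markers 1 was higher, Vwf (33.0 to 143 CPM over all 18 libraries), which is an endothelial gene. The other was at -0.65 and not called. The part of these shifts in the OXPHOS values was not tested, and in bulk samples fewer cells of a type and less RNA per cell cannot be told apart. In library 3 of loading without rHDL the stromal genes Col1a1 and Col3a1 were at 4.76 and 12.3 CPM. In every other library they were at most 2.33 and 0.97 CPM. Libraries held between 11450243 and 16835472 counts (untreated and LPS) or between 9464916 and 15607889 (the other 4 groups).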

How the data were processed

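mRNA of mouse bone marrow-derived macrophages was measured in 18 libraries by RNA-seq after poly-dT selection of RNA with an integrity number above 8, per the labels' protocols. Per the submitters' processing notes, cutadapt, HISAT2, featureCounts of Subread and DESeq2 were used with genome build mm10, and no versions are given in the sources used here. Both deposited tables of counts give whole reads for each transcript row, with no scaling by the authors. In the authors' deposited tables of comparisons each gene has a log2 fold change, an adjusted p-value and a ratio of RPKM values, and only the OXPHOS genes listed there were used.

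Rows were summed per gene symbol, and each table was fitted apart with edgeR 4.0.16 in R 4.3.3 (filterByExpr with a minimum count of 10, TMM, quasi-likelihood F tests). Of the genes, 9576 passed in the first table and 8965 in the other, whose 4 groups shared 1 fit. Benjamini-Hochberg adjustment ran over all genes tested, and a gene was called at an adjusted p under 0.05. Values after ± are standard errors for log2 fold changes and SDs for levels. The 5 comparisons were LPS against untreated, rHDL against none without and after loading, the difference of these effects, and loading against none.

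The OXPHOS genes, the other lists and the rule for named genes were chosen with earlier results of these data known. The rule took up to 8 called genes in each direction with the largest change, all called genes where 16 or fewer were, and a fixed panel, of which 1 gene is not reported here. Genes named beyond it were chosen after their values were seen. Alternatives were DESeq2 1.42.0, its size factors, library totals, 2 other filters on low counts, the replicate block, a minimum of 1.5-fold, genes of a single row whose exons overlap no other row, the 2 groups alone and leaving out each library. Leaving out both rHDL libraries numbered 1 was added after seeing the data. Libraries of a group differed by more than sampling noise. edgeR was checked on simulated counts with known changes. RefSeq promoter windows were searched for exact letters.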

Additional observations from a re-analysis of the deposited data

Results flagged for a closer look

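A test of the difference itself found 6 OXPHOS genes whose rHDL effect after cholesterol loading differed from that without loading (edgeR, n = 3 libraries in each of the 4 groups). All 6 were lower, 7.69% of the 78 tested, where 14.2% of all 8965 genes were lower and 16% higher. The differences, as the log2 effect after loading minus that without, were -0.85 for Ndufaf7, -0.59 for Ndufaf2, -0.41 for Cox7b, -0.36 for Atp5g3, -0.29 for Atp5d and -0.29 for Cyc1. All 6 lost the call when some of the 12 libraries were left out, and DESeq2 kept only Cyc1.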

How the results depend on the processing

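With library totals, LPS gave 1 OXPHOS gene higher and 59 lower, rHDL without loading 44 higher, loading 12 higher and the difference between the rHDL effects 37 lower. A minimum of 1.5-fold gave 5 higher and 4 lower with LPS and 0 with rHDL, with loading and in the difference. The 2 groups fitted alone gave 22 with rHDL and 11 with loading. DESeq2 and its size factors with edgeR gave 1 gene each in the difference. Leaving out each library gave 2 to 12 genes with rHDL, 0 in each of the 6 fits with loading and 0 to 36 in the difference, and leaving out both rHDL libraries numbered 1 gave 1 lower with rHDL after loading (Sdhc) and 25 in the difference. The replicate block gave 29 with rHDL, 11 with loading and 17 in the difference, and it kept all 38 and 6 calls with LPS. Apart from library totals, the share of all genes called under these settings is not given here. Their counts are therefore no comparison of OXPHOS genes with other genes. The labels do not say that a number marks a shared culture or day. Deviations of same-numbered libraries correlated between -0.08 and 0.07 in the first table. In the second they correlated between 0.15 and 0.44 for numbers 1 and 2 and between -0.03 and 0.18 for number 3, and 9 of 12 libraries correlated best with their own number, which is a hint from the data and not from the design. No comparison of 2 groups that was tested had every pair over 0.1, so the fit without the block was kept. The rHDL groups without and after loading, which both enter the difference, had 0.44, 0.28 and 0.18. With library totals 36 named genes that were called under at least 1 of the scalings changed sign in the LPS comparison, and the scaling shifts the median of all genes by its construction. They were Cox7c (-0.05), Atp5b (-0.07), Ndufs4 (-0.08), Uqcrb (-0.17), Cox6c (-0.18), Atp5g3 (-0.19), Cox6a1 (-0.21), Cox4i1 (-0.23), Ndufa2 (-0.23), Atp5e (-0.24), Cox7a2 (-0.27), Atp5a1 (-0.29), Cox6b1 (-0.29), Cox5b (-0.31), Cyc1 (-0.31), Ndufb2 (-0.33), Uqcrc2 (-0.34), Ndufa4 (-0.35), Ndufab1 (-0.36), Uqcrc1 (-0.38), Cox8a (-0.39), Cox7b (-0.41), Ndufaf3 (-0.41), Atp5k (-0.42), Ndufa11 (-0.43), Uqcr10 (-0.48), Sdha (-0.49), Ndufa10 (-0.50), Uqcrh (-0.50), Ndufv1 (-0.54), Atp5d (-0.56), Sdhd (-0.56), Ndufa12 (-0.58), Ndufaf2 (-0.58), Ndufb5 (-0.59) and Sdhc (-0.66). For the other settings the cause of a change was not tested. Depth limits the genes near 1 CPM, such as Cox7a1, Cox6a2, Atp5s and Atp5sl.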
